A study of Melianthus elongatus with 11 samples.

Results

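The libraries of code 1 (1-A, 1-B and 1-C) were compared with those of code L (L-A, L-B and L-C), 6 of the 11 RNA-seq libraries made from Melianthus minor, a southern African shrub whose flowers give dark, almost black nectar. A library belongs to a group by the first part of its code, the digit or letter before the first hyphen, because the filed tissue and stage labels cross the codes. Library 1-A is filed as mature leaf, 1-B and 1-C are filed as presecretory nectary, and L-A, L-B and L-C are filed as postsecretory nectary. All 11 libraries, filed under the synonym M. elongatus, came from shrubs kept outdoors in a university arboretum, sampled over a few winter days, placed in RNAlater and extracted as total RNA. No genotype, plant age or treatment is named for any of them. The other codes are 0, with 2 libraries filed as mature leaf, and 2, with 3 libraries filed as secretory nectary, of which 2-A carries a presecretory title. The comparison therefore asks how the transcript levels of one coded set differ from those of another. It cannot be read as a change in time, since the tissue behind each code is uncertain.

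A floral nectary imports or stores sugar, converts it to sucrose and exports it through the plasma membrane, where SWEET uniporters, proton pumps and invertases of the cell wall act. In Arabidopsis the gland is specified by CRABS CLAW (CRC) together with floral MADS-box factors, and its maturation needs the MYB21 and MYB24 factors downstream of jasmonate. Green leaf cells spend much of their messenger RNA on light-harvesting proteins, photosystem subunits, Rubisco and carbonic anhydrase. Many nectaries hold chloroplasts early and lose photosynthetic transcripts as they fill with starch or begin to secrete, so these 2 programmes serve below as landmarks for the 6 libraries.

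Values are the normalized read counts deposited by the authors, per contig of a transcriptome assembled without a genome. Each contig carries the locus of its closest Arabidopsis thaliana gene, and "a contig like SWEET9" below means that this gene is the closest. Of the 68651 contigs, 67753 had such a locus, covering 16092 loci, so several contigs can share 1 gene. Reads from near-identical contigs may have been split between them, which makes the level of a single contig uncertain; where a named contig and the sum over all contigs of its locus, low ones included, differ in their call, the sum is given too. Roles named below are those known in Arabidopsis.

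Column totals were 1097345, 1001565 and 1168305 in code 1 and 642324, 631454 and 916467 in code L. Values of 10 or more were found for 16815 to 18834 contigs per code 1 library and for 10111 to 13538 per code L library. Pearson's r of the log2 values was 0.930 to 0.967 among the code 1 libraries, 0.904 to 0.922 among the code L libraries and 0.250 to 0.369 between them, over contigs, which are not independent. The library filed as leaf, 1-A, thus lay with 1-B and 1-C. The labels do not tell whether libraries of a code stem from different plants. The p-values below rest on how far libraries of the same code vary, taken over all 4 codes and 11 libraries. That variation may be technical only. The number of reads behind a column is not given, so depth and counting error are unknown.

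Filtering at a value of 10 or more in at least 2 of the 11 libraries kept 26053 contigs of 10891 loci. A contig was called where limma on log2(value + 1) gave an adjusted p under 0.05 and a log2 difference of at least 1 in size. As deposited, 17912 contigs were called, 68.8% of those kept. Of these, 14169 (54.4%) were higher in code 1 and 3743 (14.4%) higher in code L. Scaling moved this split. With columns brought to equal totals, 9405 contigs (36.1%) were higher in code 1 and 5373 (20.6%) higher in code L. With median ratio scaling, which sets the typical contig to no difference, 5679 (22.4%) were higher in code 1 and 7092 (28.0%) higher in code L, so the larger side turned. The share of calls that were higher in code 1 was 79.1% as deposited, 63.6% with equal totals and 44.5% with median ratio scaling. The median log2 difference of all contigs, code 1 minus code L, was 1.21, 0.60 and 0.06 in that order.

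Which set of contigs stands higher on the whole is therefore a matter of scaling. The number called in the same direction under all 3 scalings was 5674 higher in code 1 (21.8%) and 3717 higher in code L (14.3%), and these are the background against which each gene group is read below. A list near those shares does not stand out. Complete switches were found both ways: 600 contigs were at 10 or more in every code 1 library and under 1 in every code L library, and 327 contigs showed the reverse. Of the 10891 loci, 3389 had a contig higher in code 1 under all 3 scalings, 2402 had one higher in code L, and 447 had both. The order of the deposited rows followed this difference (Spearman's rho = -0.981 between row number and log2 difference over 68651 contigs), so the table appears sorted close to it. Whether contigs were also selected for the table by this difference is not known, so the shares describe the contigs of this table and not the transcriptome.

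**Figure D1:**
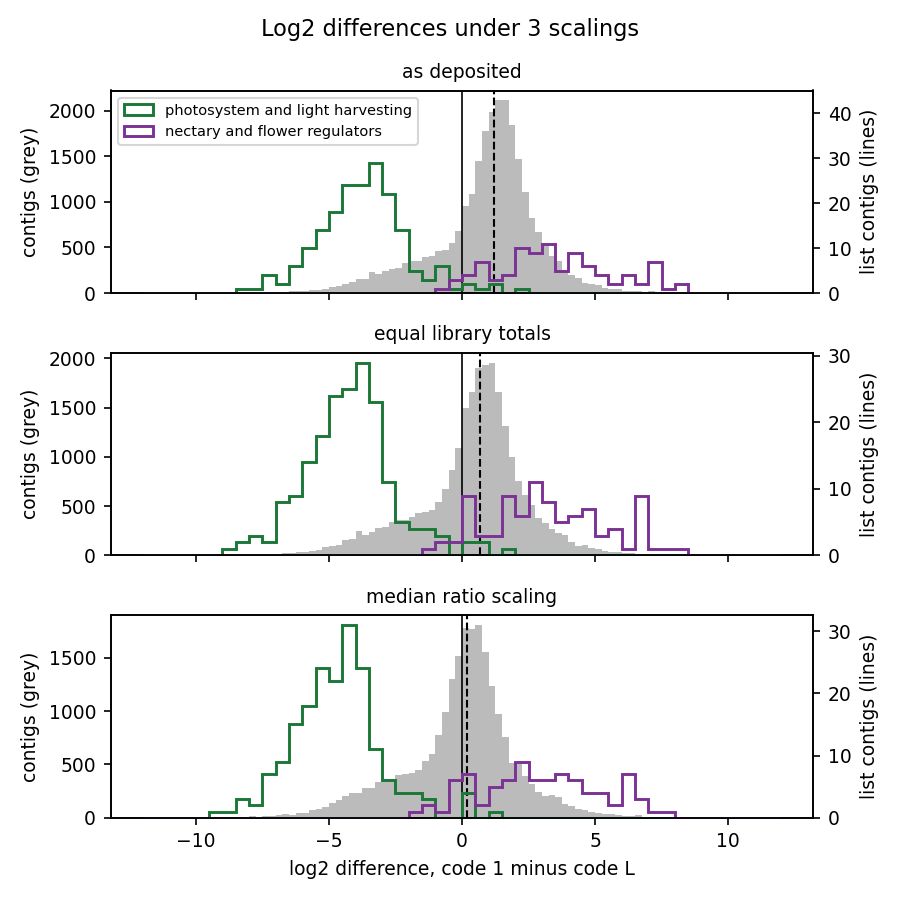
Histograms of the log2 difference of code 1 minus code L, by scaling, over the contigs kept as deposited (grey, left axis; lines for 2 gene lists, right axis; solid line at 0, dashed line at the median). The grey median moves from 1.21 as deposited to 0.19 with median ratio scaling, while most photosystem contigs lie left of 0 and most nectary and flower regulators right of 0 in each panel.

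**Figure D2:**
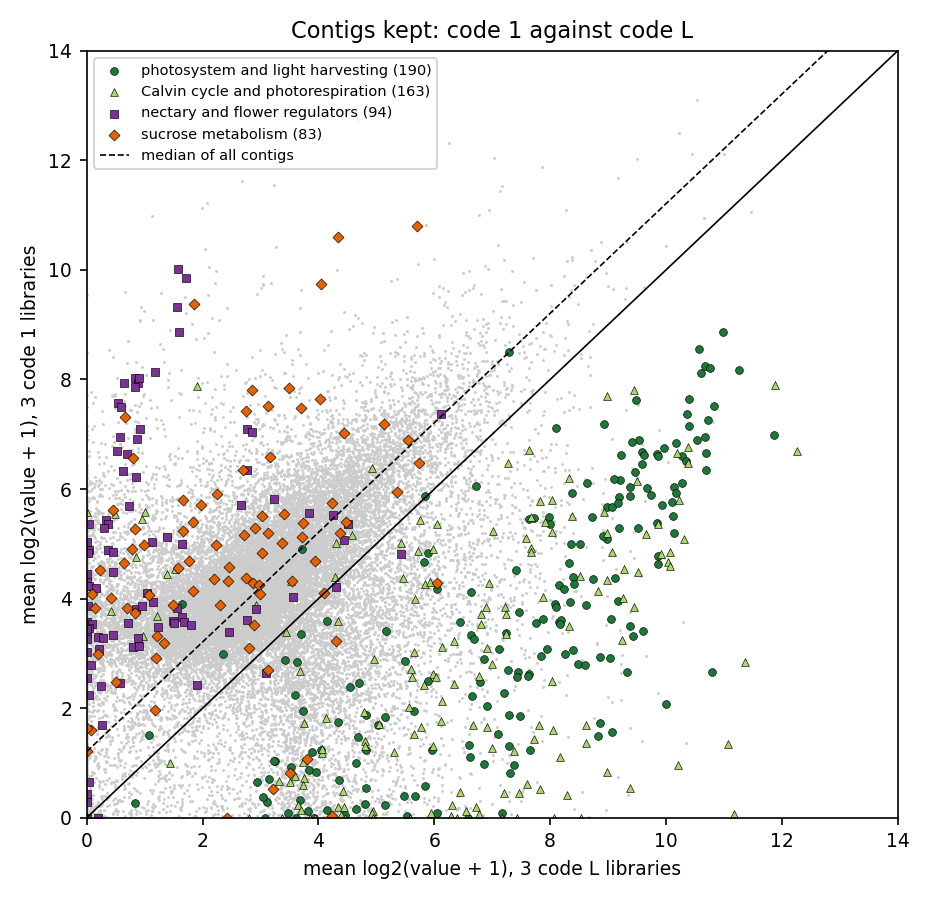
Mean log2(value + 1) of each of the 26053 contigs kept in the 3 code L libraries (x axis) and the 3 code 1 libraries (y axis), with contigs of 4 gene lists marked; the solid line is equality and the dashed line the median difference of 1.21. Most photosystem and Calvin cycle contigs lie below equality (177 of 190 and 135 of 163 called higher in code L, 1 and 12 higher in code 1), and nectary and flower regulators lie mostly near the left edge.

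Below, values are listed in the order A, B, C within a code, and a log2 difference is that of code 1 minus code L as deposited, with its standard error (SE), from 3 libraries a code. Counts of a list as deposited are to be read against 54.4% and 14.4% of all contigs, higher in code 1 and in code L. Counts under all 3 scalings are to be read against 21.8% and 14.3%. The call of a named contig held in the same direction under all 3 scalings unless the text says otherwise. Sums over the contigs of a locus were tested as deposited only, so whether their calls hold under the other scalings is not known. Because these are bulk samples, fewer cells of a type and less RNA per cell cannot be told apart.

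Regulators of nectaries and flowers were mostly high in code 1 and close to absent from code L. Of the 94 contigs on this list, 78 were higher in code 1 and 0 were higher in code L, against 54.4% and 14.4% of all contigs; 65 and 0 were so under all 3 scalings. The median log2 difference of the list was 3.31, beside 1.21 for all contigs. The list covered 22 loci.

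The MYB pair that matures Arabidopsis nectaries was on the code 1 side. MYB24 (contig Mm744) was at 928, 1085 and 1118 in code 1 and 14.6, 0.531 and 0.105 in code L. All code 1 libraries stood far above all code L libraries, and within code L the value came almost wholly from L-A. Its log2 difference was 8.45 (SE 1.02, adjusted p = 3.88e-05). MYB21 (Mm414) was at 828, 1019 and 945 in code 1 and 17.5, 0.705 and 0.139 in code L. The groups again did not overlap and L-A again stood above L-B and L-C; the log2 difference was 8.14 (SE 1.01, adjusted p = 4.55e-05). All 11 kept contigs like MYB21 and all 4 like MYB24 were higher in code 1. CRC (Mm734), which specifies the gland, was at 58.4, 116 and 59.9 in code 1 and 4.84, 0 and 0 in code L. It was listed at 0 in L-B and L-C, and its log2 difference was 5.38 (SE 0.72, adjusted p = 7.50e-05). The CRC contig was more abundant in code 0, at 932 and 1215, than in code 1.

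Floral MADS-box genes, which give floral organs their identity, showed the same side. AGAMOUS (AG, Mm16898) was at 195, 156 and 227 in code 1 and 1.4, 0.156 and 0.124 in code L, a log2 difference of 7.03 (SE 0.31, adjusted p = 1.30e-07). APETALA3 (AP3, Mm2554), a petal and stamen gene, was at 192, 145 and 206 in code 1 and 2.02, 0.127 and 0 in code L, a log2 difference of 6.90 (SE 0.39, adjusted p = 4.11e-07). SEPALLATA3 (SEP3, Mm17374) was at 164, 89.4 and 155 in code 1 and 4.11, 6.8 and 8.32 in code L, with a log2 difference of 4.203 (SE 0.42, adjusted p = 1.25e-05). None of these 3 overlapped between the groups, and SEP3 stayed above 0 in every code L library. Over all contigs of a locus, SHATTERPROOF2 (SHP2) summed to 288, 324 and 350.3 in code 1 and 3.94, 0.881 and 0.465 in code L, and SEPALLATA1 (SEP1) summed to 615, 856 and 899 in code 1 and 16.2, 4.98 and 2.68 in code L. All 4 SHP2 contigs and all 7 SEP1 contigs were higher in code 1. PISTILLATA, the partner of AP3 in Arabidopsis, was low. Its only contig kept, Mm274597, passed the filter through code 0, where it was at 14.8 and 21.4. This contig was at 1.07, 0.436 and 0.303 in code 1 and 0, 0.071 and 0 in code L, which did not pass the test (log2 difference 0.62 (SE 0.48, adjusted p = 0.258)). The PISTILLATA locus summed to 10.2, 2.5 and 5.46 in code 1 and 0.192, 0.246 and 0 in code L, and at the locus level the difference of 2.47 passed the test.

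Not every regulator was lost from code L. YABBY2 (YAB2), a leaf and floral polarity factor, summed to 42.5, 41.1 and 34.9 in code 1 and 48.4, 40.8 and 55.1 in code L, so the groups overlapped. FRUITFULL (FUL) summed to 114, 81 and 115 in code 1 and 30.9, 44 and 87.3 in code L. Neither locus passed the test when its contigs were summed. ARF8, an auxin response factor that acts with jasmonate in flower maturation, summed to 139, 89.5 and 112 in code 1 and 10.1, 15.3 and 23.64 in code L. Of its 7 contigs, 6 were higher in code 1, and they were so under all 3 scalings.

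Genes of sugar transport and sucrose metabolism were another set mostly higher in code 1, with members that were not. Of 35 sugar transporter contigs, 23 were higher in code 1 and 5 in code L (15 and 5 under all 3 scalings), with a median log2 difference of 1.66. Of 83 sucrose metabolism contigs, 60 were higher in code 1 and 7 in code L (43 and 7 under all 3 scalings), with a median of 2.16. SWEET9 (Mm6), the sucrose exporter of Arabidopsis nectaries, was at 2303, 1969 and 3049 in code 1 and 36.8, 0.806 and 0.105 in code L. Every code 1 library was far above every code L library, and L-A held nearly all of the code L signal. The log2 difference was 9.15 (SE 1.02, adjusted p = 2.37e-05), and 10.73 without L-A. SWEET7 and SWEET1, hexose transporters of the same family, had contig sums that lay on the same side: SWEET7 summed to 72.1, 105 and 58.3 in code 1 and 1.93, 0.197 and 0 in code L, and SWEET1 summed to 110.1, 89.5 and 111 in code 1 and 1.45, 2.2 and 2.31 in code L. SWEET11 (Mm82124), which loads phloem in Arabidopsis leaves, lay on the other side. It was at 12.8, 6.19 and 3.99 in code 1 and 58.3, 55.5 and 92.5 in code L, without overlap, and its log2 difference was -3.10 (SE 0.63, adjusted p = 0.00111).

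Sucrose synthases, which cleave or form sucrose with UDP, lay on the code 1 side. All 15 contigs like SUS1 were higher in code 1, 14 of them under all 3 scalings, and 8 of 9 contigs like SUS4 were so under all 3. The leading SUS1 contig (Mm120) was at 1801, 1487 and 2094 in code 1 and 42.6, 58.7 and 52.8 in code L. These groups were separated by a wide gap, and the log2 difference was 5.10 (SE 0.31, adjusted p = 5.78e-07). The locus SUS4 summed to 3793, 2124 and 3782 in code 1 and 82.6, 78.9 and 63.4 in code L. Vacuolar invertase 2 (VI2) summed to 303, 155 and 207 in code 1 and 0.874, 2.76 and 2.57 in code L, and cell wall invertase 2 (CWINV2) summed to 394, 1155 and 666 in code 1 and 42.5, 9.11 and 5.52 in code L. Library 1-B held the highest CWINV2 sum, and of the 3 CWINV2 contigs only 1 was called. CWINV4, the nectary invertase of Arabidopsis, was seen instead in code L. Its highest contig, Mm253088, was at 0.077, 0.001 and 0 in code 1 and 15.3, 23.5 and 15.9 in code L, a log2 difference of -4.204 (SE 0.39, adjusted p = 7.02e-06). The 2 sucrose phosphate synthases named behaved unlike one another. SPS4F (Mm1396), which is active in leaves, was higher in code L, where it was at 73.9, 41.8 and 90.6 against 25.7, 11.7 and 20.5 in code 1, with a log2 difference of -1.78 (SE 0.33, adjusted p = 6.01e-04). SPS2F (Mm108508) was at 25.1, 24.3 and 25 in code 1 and 13.5, 14.7 and 15 in code L, and its log2 difference of 0.75 was under the threshold of 1 and turned to -0.29 with median ratio scaling. The summed SPS2F locus was higher in code 1 as deposited, by 1.11.

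Proton pumps and water channels of the plasma membrane mostly stood on the code 1 side, with members that did not. Of 65 contigs like the AHA pumps, 34 (52.3%) were higher in code 1 and 7 (10.8%) in code L, near the shares of all contigs. Under all 3 scalings 31 (47.7%) and 7 (10.8%) were so, against 21.8% and 14.3% of all contigs. The median log2 difference was 2.17. AHA2 (Mm160) was at 412, 635 and 373 in code 1 and 7.88, 1.62 and 2.29 in code L, a log2 difference of 6.76 (SE 0.44, adjusted p = 8.73e-07). AHA1 (Mm10800) was at 52.9, 34.4 and 53.7 in code 1 and 8.19, 1.07 and 5.88 in code L, a log2 difference of 3.21 (SE 0.54, adjusted p = 3.21e-04). In both, L-A was the highest code L library but remained below every code 1 library. A contig like AHA4 (Mm234531) was higher in code L, where it was at 60.7, 121 and 119.8 against 9.45, 10.6 and 8.44 in code 1, with a log2 difference of -3.21 (SE 0.29, adjusted p = 5.99e-06). The sum over AHA4 contigs was higher in code 1, by 1.18. AHA11 summed to 37.3, 29.1 and 31 in code 1 and 114, 107 and 188 in code L, higher in code L as a sum.

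Among 30 contigs like plasma membrane aquaporins, 19 were higher in code 1 and 4 in code L (15 and 4 under all 3 scalings), with a median log2 difference of 2.16. PIP1;5 (Mm25) was at 2156, 2115 and 2318 in code 1 and 405, 272 and 267 in code L, a log2 difference of 2.83 (SE 0.34, adjusted p = 3.72e-05). The exception with the largest difference was a contig like PIP2;7 (Mm108923), which was at 7.7, 3.3 and 9.87 in code 1 and 34.5, 42.6 and 52.9 in code L, a log2 difference of -2.56 (SE 0.53, adjusted p = 0.00116). The other PIP2;7 contigs were on the code 1 side, and the summed locus was higher in code 1 by 2.41. Of 18 contigs of SNARE proteins, which fuse secretory vesicles, 10 (55.6%) were higher in code 1 and 1 in code L, with a median of 1.298. Only 4 (22.2%) and 1 were so under all 3 scalings. Both shares higher in code 1 were near those of all contigs, 54.4% and 21.8%. VAMP722 (Mm140653), the leading one, was at 115, 71.2 and 102 in code 1 and 40.1, 24.3 and 39.9 in code L. Its log2 difference of 1.45 (SE 0.27, adjusted p = 5.76e-04) was 0.86 with equal totals and 0.38 with median ratio scaling, and it passed with neither. SYP121 (Mm2639), a plasma membrane syntaxin, was higher in code L: it was at 20.23, 18.8 and 17.5 in code 1 and 103, 69.1 and 77.2 in code L, a log2 difference of -2.06 (SE 0.33, adjusted p = 2.11e-04), and its summed locus did not pass (-0.59).

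Class III peroxidases, wall enzymes that use hydrogen peroxide to oxidise phenolic compounds, held one of the largest single differences. PRX40 (Mm1) was at 2656, 4268 and 2741 in code 1 and 63.1, 1.52 and 0.621 in code L. L-A was again the only code L library above 2, and the log2 difference was 8.94 (SE 1.07, adjusted p = 3.61e-05), or 10.60 without L-A. Of 24 contigs, 13 (54.2%) were higher in code 1 and 4 (16.7%) in code L, near the shares of all contigs. Under all 3 scalings 11 (45.8%) and 4 (16.7%) were so, against 21.8% and 14.3% of all contigs. PRX65 summed to 165, 201 and 157 in code 1 and 2.69, 4.55 and 4.88 in code L, and all 3 of its contigs were higher in code 1. A contig like PRX42 (Mm79448) was higher in code L, where it was at 151, 217 and 314 against 14.8, 21.2 and 17.3 in code 1, a log2 difference of -3.56 (SE 0.81, adjusted p = 0.00213), although the sum over the 6 PRX42 contigs did not pass (-0.65).

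Enzymes of superoxide and peroxide leaned the other way. Of 30 contigs, 8 were higher in code 1 and 11 in code L, and under all 3 scalings 2 and 11. GLP3 (Mm172849), like an Arabidopsis germin-like protein, was at 0.992, 2.85 and 1.26 in code 1 and 1164, 1433 and 1317 in code L. It was near absent from code 1 and steady in code L, with a log2 difference of -8.98 (SE 0.47, adjusted p = 2.77e-07). CAT2, the leaf catalase that removes photorespiratory peroxide, summed to 149, 70.5 and 153 in code 1 and 1327, 728 and 1351 in code L, and both of its contigs were higher in code L. CAT1 (Mm163) was at 1358, 643 and 948 in code 1 and 488, 261 and 466 in code L. Its log2 difference was 1.26 (SE 0.44, adjusted p = 0.0213). The call was lost with equal totals (0.67) and median ratio scaling (0.17), and without 1-A (1.00), 1-C (1.26) or L-B (0.97). The summed CAT1 locus did not pass (0.73).

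Iron genes divided by contig. Of 71 contigs, 30 were higher in code 1 and 15 in code L (20 and 15 under all 3 scalings), with a median log2 difference of 0.82, below that of all contigs. FER1 (Mm4874), the plastid ferritin that stores iron, was at 1868, 1804 and 2531 in code 1 and 184, 53 and 129 in code L. The log2 difference was 4.23 (SE 0.52, adjusted p = 4.37e-05). A contig like FER4 (Mm11195) was at 601, 500.1 and 826 in code 1 and 15.5, 7.23 and 14.8 in code L, a log2 difference of 5.61 (SE 0.52, adjusted p = 7.17e-06). A second contig like FER4 (Mm8545) showed the reverse. It was at 10.4, 11.7 and 11.9 in code 1 and 225, 187 and 251 in code L, a log2 difference of -4.16 (SE 0.42, adjusted p = 1.19e-05), so contigs assigned to the same ferritin were separated cleanly in opposite directions. Summed over its contigs, FER4 was higher in code 1, by 1.41. NRAMP3, which exports iron from the vacuole, summed to 199.8, 148 and 197 in code 1 and 37.5, 29.5 and 43.8 in code L, and all 6 of its contigs were higher in code 1. NAS1 (Mm27542), which makes the chelator nicotianamine, was low in both groups: it was at 6.05, 5.83 and 5.18 in code 1 and 0.28, 0.09 and 0.106 in code L, a log2 difference of 2.53 (SE 0.47, adjusted p = 6.14e-04). This NAS1 contig passed the filter through codes 0 and 2. A contig like IRT1, the root iron importer, did not pass the filter and reached at most 9.82 in the 6 libraries.

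**Figure D3:**
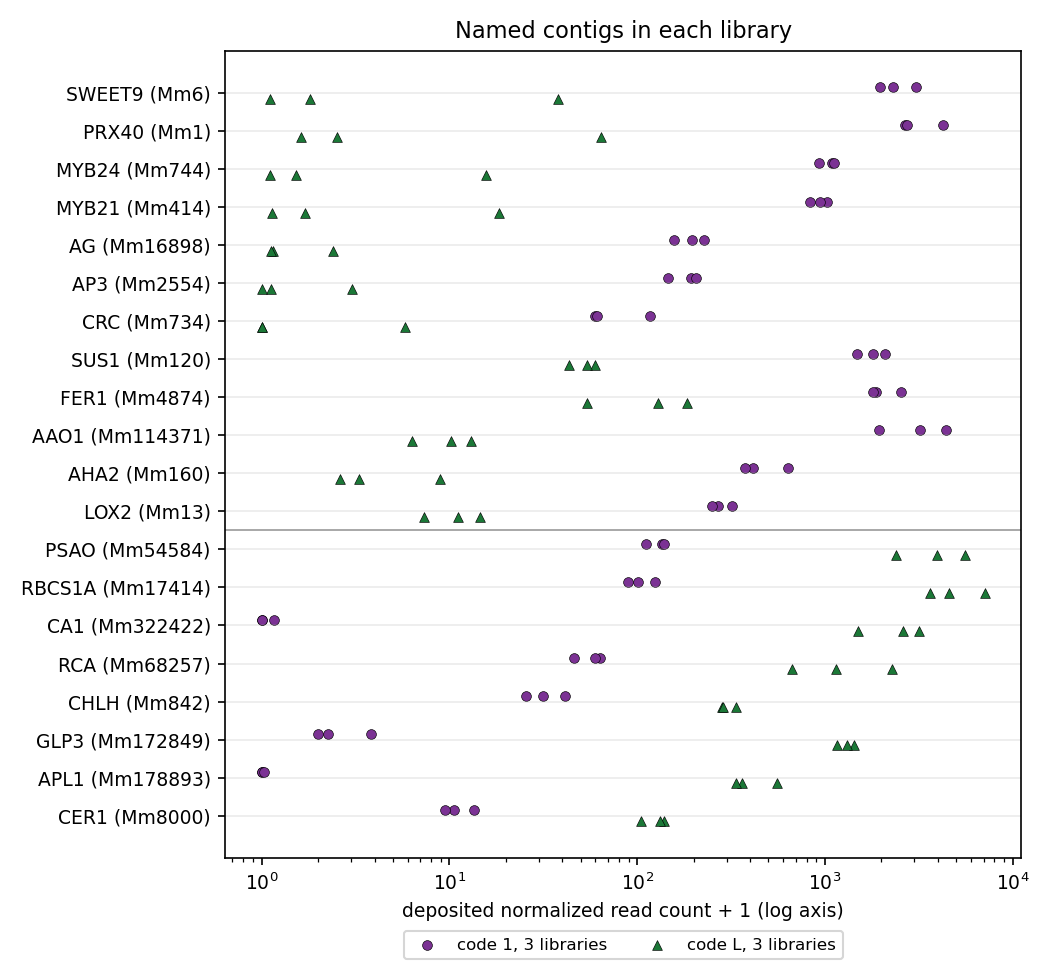
Deposited normalized read count plus 1 (log axis) of 20 named contigs in each code 1 library (circles) and each code L library (triangles). Contigs above the grey line were higher in code 1 and those under it higher in code L, without overlap, and for SWEET9, PRX40, MYB24, MYB21 and CRC the triangle farthest right is L-A.

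Photosynthesis was the programme held high in code L. Of 190 photosystem and light-harvesting contigs, 177 were higher in code L and 1 in code 1, the same numbers as under all 3 scalings, with a median log2 difference of -3.67. These contigs made up 11.2% to 13.5% of the code L totals and 0.6% to 0.913% of the code 1 totals. Of 163 Calvin cycle and photorespiration contigs, 135 were higher in code L and 12 in code 1 (135 and 10 under all 3 scalings), with a median of -3.55, and they made up 6.62% to 7.77% of the code L totals and 0.308% to 0.363% of the code 1 totals. Of 45 chlorophyll synthesis contigs, 37 were higher in code L and 0 in code 1, also under all 3 scalings, with a median of -1.96. The lists covered 50, 33 and 19 loci.

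PSAO (Mm54584), a small photosystem I subunit, was at 134, 109.9 and 138 in code 1 and 2399.9, 3933 and 5570.4 in code L. Code L exceeded code 1 in every library, and the log2 difference was -4.88 (SE 0.42, adjusted p = 4.93e-06). Plastocyanin PETE1 (Mm92112), which carries electrons to photosystem I, was at 5.35, 4.51 and 6.24 in code 1 and 1657, 1640.5 and 2076 in code L, a log2 difference of -8.14 (SE 0.39, adjusted p = 1.92e-07). PSBW (Mm8232), of photosystem II, was at 302, 249.8 and 316 in code 1 and 1664, 2491 and 3549 in code L, a log2 difference of -3.09 (SE 0.40, adjusted p = 6.22e-05). Code L was higher in every library for all 3, and the differences were of very unequal size. For LHCB1.3, a light-harvesting protein, the only contig kept (Mm393860) passed the filter through codes 0 and 2. That contig was near 0 in both groups and did not pass the test (log2 difference -0.58 (SE 1.21, adjusted p = 0.677)). The summed LHCB1.3 locus, at 1.25, 0.121 and 0.222 in code 1 and 7.7, 12.8 and 31.5 in code L, was higher in code L (-3.44). The related LHCB1.4 had 11 of 12 contigs higher in code L. Over all its contigs, LHCB1.4 summed to 836, 396 and 630.3 in code 1 and 4448, 5267 and 9398 in code L. The single contig called higher in code 1 was one like PSBP1 (Mm192311), an oxygen-evolving subunit. It was at 9.29, 20.4 and 14.3 in code 1 and 2.55, 0.78 and 3.88 in code L, a log2 difference of 2.25 (SE 0.55, adjusted p = 0.00324), while the other 4 PSBP1 contigs were higher in code L and the summed locus lay at -3.47.

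Carbon fixation held the largest log2 differences toward code L. Carbonic anhydrase CA1, which interconverts carbon dioxide and bicarbonate in the leaf plastid, had 3 of the 5 contigs with the largest log2 difference toward code L. The leading one, Mm322422, was at 0, 0.159 and 0 in code 1 and 2612, 1505 and 3171 in code L. Code 1 was at or next to 0, and the log2 difference of -11.11 (SE 0.40, adjusted p = 1.17e-07) therefore depends on the pseudocount. Over all its contigs, CA1 summed to 4.79, 3.31 and 5.3 in code 1 and 7033, 5409 and 7809 in code L. CA2 was split: its contig Mm2176 was at 233, 195 and 285 in code 1 and 5.47, 1.72 and 2.02 in code L, a log2 difference of 5.97 (SE 0.52, adjusted p = 4.71e-06), while 1 other CA2 contig was higher in code L and the summed locus did not pass (0.28). The Rubisco small subunit contig with the largest difference of means (like RBCS1A, Mm17414) was at 123, 100.3 and 88.4 in code 1 and 4577, 3614 and 7139 in code L, a log2 difference of -5.56 (SE 0.32, adjusted p = 4.23e-07). Rubisco activase RCA (Mm68257) was at 62.7, 45.1 and 58.5 in code 1 and 1148, 664 and 2274 in code L, a log2 difference of -4.43 (SE 0.37, adjusted p = 3.88e-06), and all 19 RCA contigs were higher in code L. Thioredoxin M-type 4 (Mm264387), which regulates plastid enzymes, was at 0.103, 0.26 and 0.68 in code 1 and 474, 629 and 905 in code L, a log2 difference of -8.93 (SE 0.34, adjusted p = 1.17e-07).

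In chlorophyll synthesis, CRD1 (Mm3269), a cyclase subunit, was at 170.5, 95.6 and 146 in code 1 and 756, 784 and 1421 in code L, a log2 difference of -2.81 (SE 0.40, adjusted p = 1.04e-04). CHLH (Mm842), the magnesium chelatase subunit, was at 40.2, 24.7 and 30.5 in code 1 and 282, 287 and 336 in code L, a log2 difference of -3.23 (SE 0.28, adjusted p = 4.64e-06). HEMA1 (Mm7943), at the first committed step, was at 38.9, 30.2 and 35.6 in code 1 and 113, 109.8 and 164 in code L, a log2 difference of -1.84 (SE 0.25, adjusted p = 7.29e-05). All 3 were separated without overlap. Starch synthesis genes were mixed, and starch breakdown genes leaned toward code L. Of 29 starch synthesis contigs, 8 were higher in code 1 and 6 in code L (4 and 6 under all 3 scalings), and of 39 starch breakdown contigs 9 and 14 (5 and 14). Under all 3 scalings the shares were 13.8% and 20.7% for synthesis and 12.8% and 35.9% for breakdown, against 21.8% and 14.3% of all contigs. APL1 (Mm178893), the leaf large subunit of the enzyme that makes ADP-glucose, was at 0, 0 and 0.03 in code 1 and 362, 336 and 555 in code L. It was listed at 0 in 1-A and 1-B and had a log2 difference of -8.66 (SE 0.41, adjusted p = 1.90e-07). PGI1 (Mm687) was at 92.6, 67.5 and 88.3 in code 1 and 15.2, 10.4 and 16.4 in code L, a log2 difference of 2.49 (SE 0.22, adjusted p = 5.30e-06), but its summed locus did not pass (0.11). In starch breakdown, a contig like PWD (Mm2704), a kinase of the starch surface, was at 488, 394 and 446 in code 1 and 72.9, 33.9 and 53.5 in code L, a log2 difference of 3.09 (SE 0.44, adjusted p = 1.12e-04). An alpha-amylase contig like AMY3 (Mm122370) was at 0.251, 0.437 and 0 in code 1 and 50.2, 31.5 and 58.5 in code L, a log2 difference of -5.25 (SE 0.72, adjusted p = 8.72e-05). The AMY3 locus summed to 82.6, 87.4 and 91.8 in code 1 and 179, 123 and 217 in code L, and its difference of -0.94 was under the threshold; of its 8 contigs, 1 was higher in code 1 and 4 in code L. BAM3, the leaf beta-amylase, summed to 6.62, 10.7 and 7.5 in code 1 and 69.8, 48.7 and 82.1 in code L, higher in code L.

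Genes of phenolic synthesis did not stand to one side. Of 52 contigs of the shikimate, phenylalanine and gallate glucosylation list, 17 were higher in code 1 and 5 in code L (7 and 5 under all 3 scalings), with a median log2 difference of 0.51. MEE32 (Mm37), the dehydroquinate dehydratase and shikimate dehydrogenase, was at 117, 141 and 114 in code 1 and 78.4, 65.2 and 32.6 in code L. The groups did not overlap, but the log2 difference of 1.15 (SE 0.57, adjusted p = 0.085) did not pass, and it was 0.07 with median ratio scaling. DHS1 (Mm3687), at the entry of the pathway, was at 17.5, 13.6 and 11.4 in code 1 and 20.8, 23.5 and 14.5 in code L, with overlapping groups and a log2 difference of -0.43 (SE 0.71, adjusted p = 0.589). Relatives of gallate glucosyltransferases were on the list too. UGT84A1 (Mm766) was at 103, 98.8 and 92.5 in code 1 and 77.6, 60.1 and 45.6 in code L, and the log2 difference of 0.70 (SE 0.45, adjusted p = 0.176) did not pass. Of the 7 contigs like UGT84A1, 4 were higher in code 1 as deposited and 0 under all 3 scalings, and the summed locus did not pass (0.98). UGT84A2 (Mm2212) was at 12.2, 11.9 and 7.65 in code 1 and 29.8, 27.7 and 6.02 in code L, also without a call (-0.69 (SE 1.104, adjusted p = 0.58)), whereas the same contig stood at 856 and 656 in code 0. DHS2 (Mm273023) was higher in code L, with a log2 difference of -1.11 (SE 0.27, adjusted p = 0.00302), and lost its call without L-B (-0.98) and as a summed locus (-0.79). A contig like SK2 (Mm331941), a shikimate kinase, was at 176, 62.1 and 169.9 in code 1 and 5.32, 10.1 and 19.4 in code L, a log2 difference of 3.46 (SE 0.88, adjusted p = 0.00427), with 1-B the lowest code 1 library.

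Of 12 contigs like serine carboxypeptidase-like acyltransferases, 4 were higher in code L and 0 in code 1. The leading one, like SCPL13 (Mm332109), was at 18.4, 33.8 and 38.8 in code 1 and 41.6, 136 and 187 in code L. The gap between 1-C and L-A was small, and the log2 difference of -1.78 (SE 0.66, adjusted p = 0.0284) lost its call without 1-A (-1.47), L-B (-1.58) or L-C (-1.35). Of 45 phenylpropanoid, lignin and laccase contigs, 20 were higher in code 1 and 6 in code L (12 and 6 under all 3 scalings). CCR1 (Mm3283), a monolignol enzyme, was at 181, 93.1 and 182 in code 1 and 6.44, 5.59 and 10.6 in code L, a log2 difference of 4.14 (SE 0.51, adjusted p = 4.30e-05). PAL1 (Mm22331), at the entry to phenylpropanoids, lay on the code L side: it was at 3.29, 2.67 and 1.25 in code 1 and 91.7, 71.2 and 29.1 in code L, a log2 difference of -4.16 (SE 0.57, adjusted p = 8.63e-05). COMT1 (Mm228), a methyltransferase of lignin, was at 218, 117 and 198 in code 1 and 76, 21.1 and 83.6 in code L. Its call (log2 difference 1.72 (SE 0.62, adjusted p = 0.0248)) was lost with equal totals (1.13) and median ratio scaling (0.64), and without 1-A (1.55), 1-C (1.62) or L-B (1.097).

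Among 17 flavonoid contigs, 6 were higher in code 1 and 8 in code L (5 and 8 under all 3 scalings). Higher in code L were 2 summed loci: the flavonol synthase FLS1 summed to 0.508, 0.491 and 0.173 in code 1 and 207, 199 and 90.6 in code L, and the regulator MYB12 summed to 0.067, 0.155 and 0 in code 1 and 30.1, 26.1 and 8.44 in code L. Chalcone synthase CHS (Mm7022), at the start of the pathway, was at 60.4, 63.8 and 34.6 in code 1 and 356, 396 and 174 in code L, a log2 difference of -2.48 (SE 0.46, adjusted p = 6.38e-04). Higher in code 1 were 2 others: LDOX, an enzyme of the anthocyanin branch, summed to 49.3, 45.8 and 28.1 in code 1 and 7.29, 5.16 and 9.11 in code L, and TT19, a glutathione S-transferase of pigment transport, summed to 66.3, 64.5 and 53.6 in code 1 and 1.06, 0.163 and 0.157 in code L. Chalcone isomerase (Mm642) was at 302, 267 and 294 in code 1 and 109, 114 and 99.6 in code L, a log2 difference of 1.41 (SE 0.25, adjusted p = 5.13e-04). That call was lost with equal totals (0.82) and with median ratio scaling (0.33).

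Jasmonate genes were near the shares of all contigs as deposited. Of 77 contigs, 39 (50.6%) were higher in code 1 and 11 (14.3%) in code L, against 54.4% and 14.4% of all contigs. Under all 3 scalings 29 (37.7%) and 11 (14.3%) were so, against 21.8% and 14.3%. The median log2 difference was 1.52, beside 1.21 for all contigs. LOX2 (Mm13), a plastid lipoxygenase at the start of synthesis, was at 267, 248 and 321 in code 1 and 13.6, 6.31 and 10.2 in code L, a log2 difference of 4.71 (SE 0.41, adjusted p = 4.98e-06). A second contig like LOX2 (Mm2881) was at 40.8, 11.9 and 22.5 in code 1 and 124, 47.4 and 196 in code L. It was higher in code L, with a log2 difference of -2.18 (SE 0.51, adjusted p = 0.00254), and far higher in code 0, at 1033 and 670. The summed LOX2 locus was higher in code 1, by 1.48. The receptor gene COI1 summed to 51.5, 30.8 and 50 in code 1 and 36.9, 28.4 and 44.9 in code L, without a call. JAZ repressors, which jasmonate induces, were higher in code 1 in 7 of 11 contigs like JAZ1, 6 of 7 like JAZ2 and 4 of 5 like JAZ6. JAR1, which makes the active conjugate, summed to 285, 336 and 338 in code 1 and 40.7, 33.5 and 59.7 in code L. AOS, in contrast, was higher in code L, where its contig sum was 62.7, 69.7 and 166 beside 42.7, 34.6 and 33.7 in code 1.

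An aldehyde oxidase contig like AAO1 (Mm114371) had one of the largest differences of means. It was at 3213, 1929.9 and 4409.7 in code 1 and 9.22, 5.36 and 12 in code L, a log2 difference of 8.32 (SE 0.91, adjusted p = 2.16e-05). The same contig was listed at 0 in both code 0 libraries and ranged from 15.3 to 421 in code 2. The list of abscisic acid synthesis and aldehyde oxidases had 7 contigs each way of 21 under all 3 scalings. That is 33.3% each way, against 21.8% and 14.3% of all contigs. ABA1 (Mm1121), which makes the precursor violaxanthin, was higher in code L, where it was at 269, 71.6 and 219 against 64.1, 36 and 57.6 in code 1, a log2 difference of -1.64 (SE 0.42, adjusted p = 0.00445). CYP707A4, which breaks down abscisic acid, summed to 137, 204 and 141 in code 1 and 5.92, 4.84 and 1.7 in code L. Of 9 auxin transport contigs, 3 were higher in code 1 and 4 in code L, 1 and 4 under all 3 scalings. The efflux carrier PIN3 appeared on both sides: Mm249601 was at 28.6, 72.8 and 45 in code 1 and 0.346, 0.112 and 0.176 in code L, a log2 difference of 5.27 (SE 0.68, adjusted p = 5.81e-05), and Mm21291 was at 16.2, 9.66 and 12.3 in code 1 and 24.6, 30.6 and 55.5 in code L, a log2 difference of -1.41 (SE 0.37, adjusted p = 0.00526). The summed PIN3 locus did not pass (0.75). Of 48 polyamine contigs, 20 were higher in code 1 and 0 in code L, but 8 and 0 under all 3 scalings. SAMDC3 (Mm20), a decarboxylase of the pathway, was at 171, 118 and 223 in code 1 and 68.7, 44.8 and 44.8 in code L. Its log2 difference of 1.66 (SE 0.37, adjusted p = 0.00187) was 0.58 with median ratio scaling, where it did not pass, and the contig was higher in code 0, at 2411 and 2150. The summed SAMDC3 locus was under the threshold (0.86). SAMDC1 (Mm16964) was at 229, 152 and 249 in code 1 and 199.6, 97.4 and 165 in code L, without a call (0.47 (SE 0.31, adjusted p = 0.18)), and its sign turned with median ratio scaling (-0.61).

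In nitrogen assimilation, GLN2 (Mm8758), the plastid glutamine synthetase that recaptures photorespiratory ammonium, was at 19.3, 24.6 and 17.9 in code 1 and 921, 457 and 1049.9 in code L, a log2 difference of -5.15 (SE 0.50, adjusted p = 9.91e-06). GLN1;1 (Mm26), a cytosolic isoform, was at 407, 721 and 437 in code 1 and 33.4, 19.6 and 18.8 in code L, a log2 difference of 4.39 (SE 0.60, adjusted p = 8.11e-05). All 5 GLN2 contigs were higher in code L. Asparagine synthetase ASN1, which is induced when carbon is short, summed to 1169.7, 481 and 768 in code 1 and 20.5, 14.9 and 22.6 in code L, and 7 of its 8 contigs were higher in code 1. Of 29 contigs in all, 12 were higher in code 1 and 6 in code L under all 3 scalings.

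Of 85 clock and light contigs, 42 were higher in code 1 and 9 in code L (22 and 9 under all 3 scalings). The clock genes LHY (Mm650) and TOC1 (Mm1912) did not pass as deposited. LHY was at 11.9, 9.21 and 10.4 in code 1 and 6.21, 6.47 and 8.47 in code L, a log2 difference of 0.52 (SE 0.31, adjusted p = 0.143) that turned to -0.46 with median ratio scaling, although its summed locus was higher in code 1 as deposited (1.04). TOC1 was at 31.8, 26.2 and 33 in code 1 and 23.2, 26.3 and 48.7 in code L, with overlapping groups and a log2 difference of -0.04 (SE 0.26, adjusted p = 0.904). With median ratio scaling TOC1 was higher in code L (-1.097, adjusted p = 3.85e-04). Phytochrome A (Mm132196) was at 477, 463 and 159 in code 1 and 10.3, 40.7 and 43.3 in code L, a log2 difference of 3.58 (SE 0.53, adjusted p = 1.48e-04). PIF4 (Mm127144), a growth factor that phytochrome removes, was at 19.7, 26.6 and 15.3 in code 1 and 29.5, 48.3 and 86.5 in code L, a log2 difference of -1.27 (SE 0.49, adjusted p = 0.0337). That call was lost without 1-A (-1.26), 1-C (-1.09), L-B (-1.297) or L-C (-0.88). The summed PIF4 locus did not pass (-0.76).

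Senescence markers gave no single direction. Of 34 contigs, 12 were higher in code 1 and 8 in code L (7 and 8 under all 3 scalings). SAG21 (Mm22), an LEA protein of ageing and stressed tissue, was at 3687, 4083 and 4764 in code 1 and 403, 608 and 1548 in code L. All code 1 values were above all code L values, among which L-C was highest, and the log2 difference was 2.52 (SE 0.49, adjusted p = 7.72e-04). ORS1, a NAC factor that promotes leaf ageing, summed to 104, 191 and 88.5 in code 1 and 0.253, 0.928 and 0.853 in code L. WRKY6 (Mm24316), also induced in ageing leaves, was higher in code L: it was at 50, 50.3 and 61.1 in code 1 and 233, 377 and 349 in code L, a log2 difference of -2.52 (SE 0.23, adjusted p = 7.20e-06). WRKY70 summed to 8.93, 9.62 and 10.4 in code 1 and 72, 88.2 and 192 in code L, likewise higher in code L. Of 18 ATG8 contigs, 12 were higher in code 1 and 0 in code L, and 5 and 0 under all 3 scalings. ATG8C (Mm2367), a ubiquitin-like protein of autophagosomes, was at 100.2, 191 and 131 in code 1 and 9.37, 14.9 and 18 in code L, a log2 difference of 3.23 (SE 0.41, adjusted p = 5.02e-05). No contig was assigned to SAG12 or NAC092, so these markers could not be examined.

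Among 20 contigs of secreted defence proteins, 4 were higher in code 1 and 5 in code L, 3 and 5 under all 3 scalings. A contig like the glucanase BG3 (Mm193) was at 518, 370.1 and 822 in code 1 and 9.86, 0 and 0 in code L. It was listed at 0 in L-B and L-C, and the log2 difference was 7.93 (SE 0.76, adjusted p = 8.87e-06). Of the 5 BG3 contigs kept, only 1 was higher in code 1 and 3 were higher in code L. The summed BG3 locus was higher in code 1, by 1.57. PR4 (Mm105918), a chitin-binding protein, was at 23.1, 25.1 and 27.7 in code 1 and 90.5, 254 and 178 in code L, a log2 difference of -2.62 (SE 0.44, adjusted p = 2.98e-04). Of 43 heat shock contigs, 24 (55.8%) were higher in code 1 and 3 in code L, but 9 (20.9%) and 3 under all 3 scalings. Both shares higher in code 1 were near those of all contigs, 54.4% and 21.8%. HSP70-4 had 2 named contigs. Mm18043 was at 385, 357 and 443 in code 1 and 119, 69.3 and 159.5 in code L, a log2 difference of 1.83 (SE 0.42, adjusted p = 0.00246) that was 0.75 with median ratio scaling and did not pass there. Mm5075 was higher in code L, with a log2 difference of -1.48 (SE 0.61, adjusted p = 0.0434), a call lost without any of the 6 libraries in turn (-1.71 to -1.15). The summed HSP70-4 locus, of 18 contigs kept, did not pass (0.84).

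Growth genes gave no single direction. Of 24 cell division contigs, 7 were higher in code 1 and 3 in code L (4 and 3 under all 3 scalings), with a median log2 difference of -0.09. The mitotic cyclin CYCB1;2 (Mm257493) was at 64.4, 15.2 and 106 in code 1 and 0.38, 0.292 and 0.256 in code L, with 1-B the lowest of code 1 and a log2 difference of 5.21 (SE 0.70, adjusted p = 7.31e-05). CYCD3;2 (Mm161094) was at 0, 0.334 and 0.603 in code 1 and 6.17, 9.05 and 12.6 in code L, a log2 difference of -2.95 (SE 0.34, adjusted p = 2.68e-05). This contig was highest in code 0, at 73.7 and 114, and without code 0 it would not have passed the filter. Of the 3 CYCD3;2 contigs 1 was called each way, and the summed locus did not pass (-0.37). Of 35 expansin and xyloglucan enzyme contigs, which loosen walls, 19 were higher in code 1 and 7 in code L (13 and 7 under all 3 scalings). XTH5 (Mm11135) was at 259.7, 179.7 and 259 in code 1 and 11.3, 10.4 and 7.44 in code L, a log2 difference of 4.45 (SE 0.30, adjusted p = 1.03e-06). EXPA15 (Mm4268) was at 25.5, 11.6 and 15.9 in code 1 and 124, 107 and 146 in code L, a log2 difference of -2.82 (SE 0.30, adjusted p = 1.87e-05), although the sum over the 6 EXPA15 contigs did not pass (-0.70).

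Markers of other cell types were examined for each group. Epidermis and cuticle genes stood on the same side as photosynthesis: of 25 contigs, 15 were higher in code L and 3 in code 1, both under all 3 scalings, with a median log2 difference of -1.98. CER1 (Mm8000), a wax alkane enzyme, was at 12.6, 9.54 and 8.47 in code 1 and 104, 138 and 132 in code L, a log2 difference of -3.49 (SE 0.25, adjusted p = 1.55e-06). GPAT6, a cutin enzyme of flowers and young leaves, summed to 1.09, 1.1 and 1.02 in code 1 and 38.2, 50 and 33.7 in code L. KCS20 (Mm144954), a fatty acid elongase, was the called exception of largest difference and was at 22, 30.1 and 26.6 in code 1 and 2.22, 4.71 and 1.69 in code L, a log2 difference of 2.88 (SE 0.39, adjusted p = 8.49e-05). The pollen and tapetum list had 6 contigs, of which 4 were higher in code 1 and 1 in code L. Its arabinogalactan protein AGP6 (Mm129086) was at 116, 108 and 32.1 in code 1 and 1.8, 4.54 and 4.74 in code L, a log2 difference of 4.07 (SE 0.48, adjusted p = 3.15e-05). QRT3 (Mm389441), a pectin enzyme of pollen, was higher in code L, with a log2 difference of -1.18 (SE 0.48, adjusted p = 0.0414), a call lost without 1-B (-1.07), 1-C (-1.12), L-A (-1.01) or L-B (-1.06), and its summed locus did not pass (-0.50). Of 10 vascular contigs, 6 were higher in code 1 and 0 in code L, and 2 and 0 under all 3 scalings. All 6 were like CALS7, the callose synthase of phloem sieve pores, while CESA7, of xylem walls, summed to 78.2, 75.4 and 77.3 in code 1 and 56.6, 74 and 49.7 in code L, without a call.

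Stomatal markers gave no single direction. Of 13 contigs, 6 were higher in code 1 and 3 in code L (2 and 3 under all 3 scalings). FAMA (Mm248379), the switch to guard cells, was at 0.37, 0 and 0.038 in code 1 and 1.24, 1.9 and 1.42 in code L, a log2 difference of -1.15 (SE 0.37, adjusted p = 0.0141). This contig was low in both groups and passed the filter only through code 0, where it stood at 34.6 and 75.95. Its call was lost with a pseudocount of 5 in place of 1 (-0.34). TMM (Mm22137), a receptor of stomatal spacing, was at 44.1, 139 and 64.1 in code 1 and 21.3, 5.43 and 13.2 in code L, a log2 difference of 2.55 (SE 0.59, adjusted p = 0.00236) that missed the call with median ratio scaling (1.52). A guard cell kinase contig like OST1 (Mm218939) was at 0, 2.35 and 0.418 in code 1 and 6.1, 16.8 and 13 in code L, a log2 difference of -2.85 (SE 0.59, adjusted p = 0.00126), against a summed locus that was higher in code 1 (1.37). Contigs like STOMAGEN did not pass the filter and reached at most 18.5 in the 6 libraries. The part that these cell types play in the differences above was not tested.

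Gene families taken by the words of their annotation were counted in the same way. Of 67 NAC factor contigs, 45 were higher in code 1 and 10 in code L (29 and 10 under all 3 scalings), with a median log2 difference of 1.89. Of 115 MYB contigs the counts were 59 and 25 (34 and 25), of 120 bHLH contigs 51 and 16 (27 and 16), and of 57 WRKY contigs 28 and 13 (16 and 13). As deposited, 51.3%, 42.5% and 49.1% of MYB, bHLH and WRKY contigs were higher in code 1, none above the 54.4% of all contigs. Higher in code L were 21.7%, 13.3% and 22.8%, against 14.4%. Under all 3 scalings 29.6%, 22.5% and 28.1% of MYB, bHLH and WRKY contigs were higher in code 1, against 21.8% of all contigs. The shares higher in code L were then the same as those as deposited, against 14.3%. The NAC shares were 67.2% and 14.9% as deposited and 43.3% and 14.9% under all 3 scalings. Of 93 UDP-glycosyltransferase contigs, 58 were higher in code 1 and 17 in code L (29 and 17 under all 3 scalings), with a median of 1.51. Of 102 cytochrome P450 contigs the counts were 50 and 28 (34 and 28), and of 38 glutathione S-transferase contigs 22 and 7 (11 and 7). As deposited, the P450 shares were 49.0% and 27.5%, and the glutathione S-transferase shares 57.9% and 18.4%. Of 41 MATE contigs, 18 were higher in code 1 and 9 in code L (7 and 9 under all 3 scalings), and of 35 ABC contigs 11 and 4 (6 and 4). As deposited, 43.9% of MATE and 31.4% of ABC contigs were higher in code 1, against 54.4% of all contigs. Under all 3 scalings 17.1% of each were so, against 21.8%. The MATE share higher in code L was then above the 14.3% of all contigs, and the ABC share, 11.4%, below it. Lipid transfer proteins gave 17 and 11 of 42 (10 and 11 under all 3 scalings), and beta-glucosidases 11 and 4 of 21 (3 and 4).

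**Figure D4:**
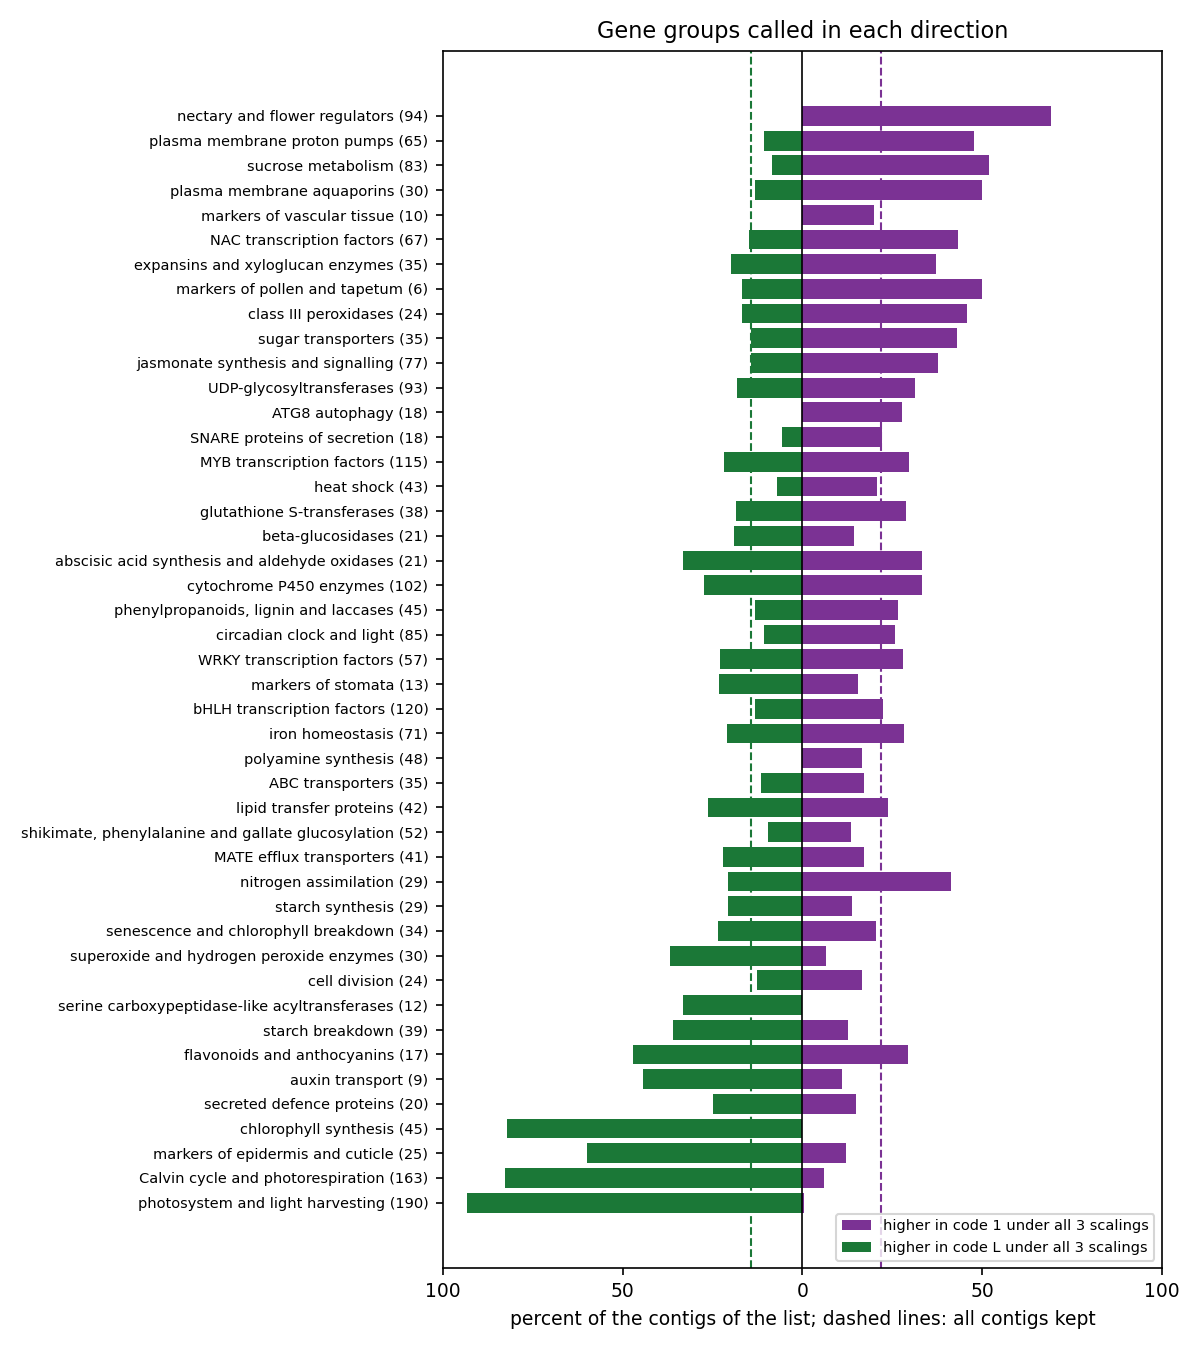
Percent of the contigs of each list called higher in code 1 (right) or higher in code L (left) under all 3 scalings, with the number of contigs in brackets and lists ordered by median log2 difference; dashed lines mark 21.8% and 14.3%, the shares among all contigs kept. Nectary and flower regulators have 65 of 94 contigs to the right and none to the left, and photosystem and light harvesting has 177 of 190 to the left.

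Outside the lists, the contigs of largest difference toward code 1 included lipid transfer, metal-binding and desiccation proteins. A lipid transfer protein contig (Mm897) had the largest log2 difference toward code 1 among annotated contigs without overlap. It was at 1734, 1592 and 2977 in code 1 and 6.07, 0.239 and 0.187 in code L, a log2 difference of 9.85 (SE 0.74, adjusted p = 2.08e-06). A homeodomain-like contig (Mm155) was at 4806, 8478 and 7566 in code 1 and 69.4, 17.56 and 11.9 in code L, a log2 difference of 8.04 (SE 0.61, adjusted p = 2.22e-06). Metallothioneins, small metal-binding proteins, gave 2 contigs: the one like metallothionein 2B (Mm117) was at 5369.7, 4417 and 5525 in code 1 and 150.2, 76.5 and 36.3 in code L, a log2 difference of 6.06 (SE 0.50, adjusted p = 3.48e-06). The one like metallothionein 2A (Mm48) was at 6085, 3949.7 and 8020.4 in code 1 and 1248, 868 and 1593 in code L, a log2 difference of 2.27 (SE 0.55, adjusted p = 0.00333) that missed the call with median ratio scaling. The largest difference of means was that of a dehydrin (Mm60), a desiccation protein, which was at 7573, 8933 and 9846 in code 1 and 1275, 1046 and 2474 in code L, a log2 difference of 2.55 (SE 0.55, adjusted p = 0.00152). A second dehydrin contig (Mm951) lost its call with equal totals (1.07), with median ratio scaling (0.57) and without L-B (1.54). A contig like a plasma membrane cation-binding protein (Mm406) was at 2032, 2109 and 2663 in code 1 and 12, 1.84 and 0.723 in code L, a log2 difference of 9.14 (SE 0.89, adjusted p = 1.02e-05). Mm351394, like plastid transcriptionally active 17, was listed at 0 in every code L library and stood at 616, 763 and 891 in code 1. A contig like a high mobility group protein (Mm959) was at 4461, 3192 and 5312 in code 1 and 106, 151 and 136 in code L, a log2 difference of 5.02 (SE 0.47, adjusted p = 8.08e-06). A contig like proton pump interactor 1 (Mm182) was at 3297, 3882 and 4172 in code 1 and 235, 164 and 317 in code L, a log2 difference of 4.03 (SE 0.55, adjusted p = 8.35e-05).

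One code L library differed from the other 2 in the contigs that code 1 holds high. Among 128 contigs with a code 1 mean of 100 or more and values under 2 in L-B and L-C, the median in L-A was 2.02, and 65 were at 2 or more there. These L-A values were a median 0.930% of the code 1 mean, with quartiles of 0.431% and 1.65%. Chosen the same way, L-B had 0 of 63 contigs at 2 or more and L-C had 7 of 70. What this level in L-A stems from was not tested. With L-A left out, 13502 contigs were higher in code 1 and 3783 in code L. Leaving out 1-A, the library filed as leaf, gave 13575 and 3611, and leaving out both gave 12675 and 3608.

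The markers can be set against the filed labels. The 3 code L libraries, filed as postsecretory nectary, held the highest share of photosynthesis transcripts of all 11, while nectary and flower regulators made up 0.043% to 0.0567% of their totals. In 1-A, filed as mature leaf, photosystem contigs made up 0.913% of the total, beside 0.6% and 0.755% in 1-B and 1-C. The values go against the filed tissue of 1-A and of the code L libraries, so the groups are called by code here. In code 0, also filed as mature leaf, photosystem contigs made up 0.882% and 0.886% of the totals, and nectary and flower regulators 0.631% and 0.722%. These values go against the filed tissue of code 0 too. In code 2 photosystem contigs made up 0.446%, 0.609% and 0.666%. SWEET9 (Mm6) stood at 0.84 and 2.86 in code 0 and at 5216, 2725 and 3321 in code 2.

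**Figure D5:**
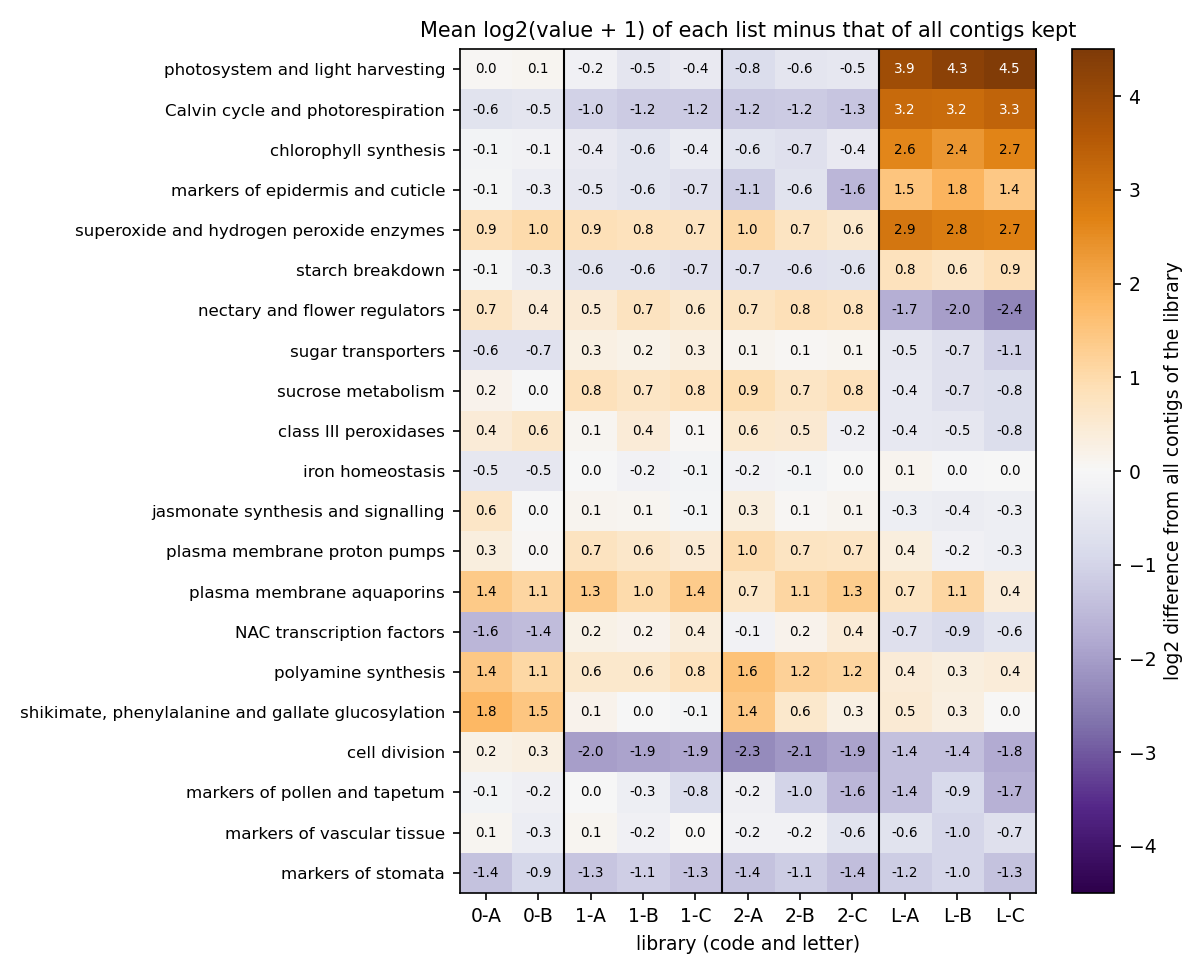
Mean log2(value + 1) of the contigs of 21 lists minus that of all contigs kept, in each of the 11 libraries (columns, grouped by code); orange is above and purple below the library's mean. Photosystem and light harvesting lies 3.9 to 4.5 above it in the code L libraries and 0.2 to 0.5 below it in the code 1 libraries, and nectary and flower regulators lie 1.7 to 2.4 below it in code L.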

How the data were processed

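Total RNA of 11 Melianthus minor libraries was sequenced, and the authors deposited 1 table of 68651 contigs whose values are labelled normalized read counts, treated here as a normalized signal. The authors used kallisto 0.46.1, per the submitters' processing notes. The assembly, the assignment of Arabidopsis loci and the scaling of columns are not given in the sources used here, so no count model was applied, depth is unknown and levels are not compared between genes.

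Libraries were grouped by code. Contigs at 10 or more in at least 2 of 11 libraries were kept. limma 3.58.1 (R 4.3.3, empirical Bayes trend, two-sided) was fitted to log2(value + 1) with 1 mean per code over all 11 libraries, and p-values were Benjamini-Hochberg adjusted over all contigs kept; calls needed an adjusted p under 0.05 and a log2 difference of at least 1. A fold on this scale understates the change of low contigs. The fit was repeated after scaling to equal totals and by median ratio, and under the alternatives described in the closing section; the script was tested on simulated data. Lists (34 by locus, 11 by annotation words) are described by counts and medians, without a set test.

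Named contigs were, per list and direction, the called contig without overlap and with the largest difference of means. Over all contigs, the 5 largest log2 differences and 10 largest differences of means each way were added. A set of fixed genes was also named, each by its highest contig among those kept. Summed loci, named beside them, were chosen after their values were seen. Members, lists and tests were chosen with earlier results of these data known.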

Additional observations from a re-analysis of the deposited data

How the results depend on the processing

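Of 106 named contigs, 96 were called, 87 of these in the same direction under all 3 scalings and 63 with no change of call or sign under any of the alternatives. Counts of calls (higher in code 1, higher in code L, in all) moved by over 1.5 times for these settings: equal totals (9405 higher in code 1), median ratio scaling (5679 and 7092), no filter (25019, 7439, 32458), a filter of 50 (4126, 1239, 5365), contigs summed by locus (6070, 1672, 7742), 1 contig per locus (5788, 1630, 7418), a threshold of 2 on the log2 difference (6539, 2459, 8998) and, chosen after seeing the data, calls under all 3 scalings (5674 and 9391). Summing by locus, taking 1 contig per locus and the stricter filter test fewer features, and dropping the filter tests more. Leaving out 1 library gave 16722 to 18259 calls. Groups by filed tissue and stage, with 1-A among the leaves, gave 16097. Whether the library letters pair the samples could not be settled. The correlation of deviations was 0.03, 0.24 and 0.05 between libraries of the same letter and -0.17 to 0.14 between different letters. Deviations from a mean of 3 libraries are tied to one another, so these values cannot exclude pairing. With the letter as a replicate block, 18065 contigs were called. Of the named contigs only MEE32 (Mm37, 1.15) changed its call, passing with the block (adjusted p = 0.0272) and with these 6 libraries alone (0.0150). Signs turned on summing by locus for Mm192311 (-3.47), Mm8545 (1.41), Mm21291 (0.75), Mm2881 (1.48), Mm234531 (1.18), Mm108923 (2.41), Mm5075 (0.84), Mm218939 (1.37) and Mm1912 (0.40). They turned with median ratio scaling for Mm108508 (-0.29), Mm766 (-0.37), Mm650 (-0.46) and Mm16964 (-0.61), and with equal totals for Mm650 (-0.012) and Mm16964 (-0.12); none of these 4 was called as deposited. Mm1912, also not called, ranged from -0.24 without L-A to 0.28 without L-C. The cause of these turns was not tested. Relative to the median of all contigs, 23 of 45 lists stayed on the same side in every alternative. Unknown read depth limits what can be said of contigs at or near 0.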
